A study of Zea mays with 11 samples.

Results

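In the endosperm of the maize inbred line Mo17, 953 nuclear genes carried clearly more CHH methylation in the region upstream of the gene at 20 and 25 days after pollination than at 7, 9 and 11 days. The members were selected on the methylation levels themselves. A nuclear gene needed at least 20 upstream CG calls in each of the 8 endosperm libraries, an upstream CHH level under 20% in the leaf, and a mean of days 20 and 25 at least 8 percentage points above the mean of days 7, 9 and 11. Of 39656 gene models, 39475 were nuclear, 34381 had the calls and 33665 were also under the leaf limit, so that the members were 2.83% of the genes that could have been chosen (the eligible genes). The gain itself is therefore a description and has no test here. In the leaf, a total of upstream CHH calls could be recovered for 952 of the 953 members. Among the 32712 other eligible genes it could be for 32696. The rest were counted as 0% in the leaf, although they may have had no calls there.

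The data come from bisulfite sequencing of genomic DNA, in which unmethylated cytosines are converted and read as thymine, and the level is the percentage of calls at cytosines of a context that stayed unconverted. Field-grown Mo17 plants were self-pollinated on the same day, and the 11 libraries are whole kernels at 3 and 5 days after pollination, endosperm dissected at 8 stages (days 7, 9, 10 and 11, days 13 and 15, and days 20 and 25), and an ear leaf at 13 days as the control tissue. All libraries share the Mo17 genotype and the labels name no treatment. Each stage is 1 library, so any spread below is between libraries of different days, and the labels do not say how many ears or plants a library holds. Whole kernels also hold maternal tissue and embryo. A level is an average over all cells of a sample, so more methylated cells and more methylation per cell cannot be told apart.

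Plants methylate cytosine in 3 contexts, CG, CHG and CHH, where H is A, C or T. CG and CHG methylation can be copied from the parental strand after DNA replication, whereas CHH methylation has to be set anew, by RNA-directed DNA methylation through domains-rearranged methyltransferases or by chromomethylases. In maize, CHH methylation is known to be concentrated in short stretches next to genes, often at the edge of a transposon. The endosperm is the storage tissue of the kernel and is known to fill with starch and with zein storage proteins in the stages sampled here.

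The mean upstream CHH level of the members was near 7% in endosperm at days 7, 9 and 11 and somewhat higher at day 10. From day 13 on it was above all of these, and it was above 17% at the end of the series. It was 12.1% and 10.1% in whole seed at days 3 and 5, then 7.22%, 7.46%, 8.55% and 7.36% in endosperm at days 7, 9, 10 and 11. At days 13, 15, 20 and 25 it was 10.5%, 12.8%, 17.5% and 18.5%, and in the leaf it was 9.90%. The means of days 7, 9 and 11 were thus below those of whole seed and leaf, and the late ones above. An early mean below the leaf and both whole-seed libraries was found in 483 members (50.7%) and in 47.3% of the other eligible genes. In the other 32712 eligible genes the mean was 3.45% ± 0.252 (SD, n = 3) in the early libraries and 4.47% ± 0.189 (SD, n = 2) in the late ones.

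**Figure D1:**
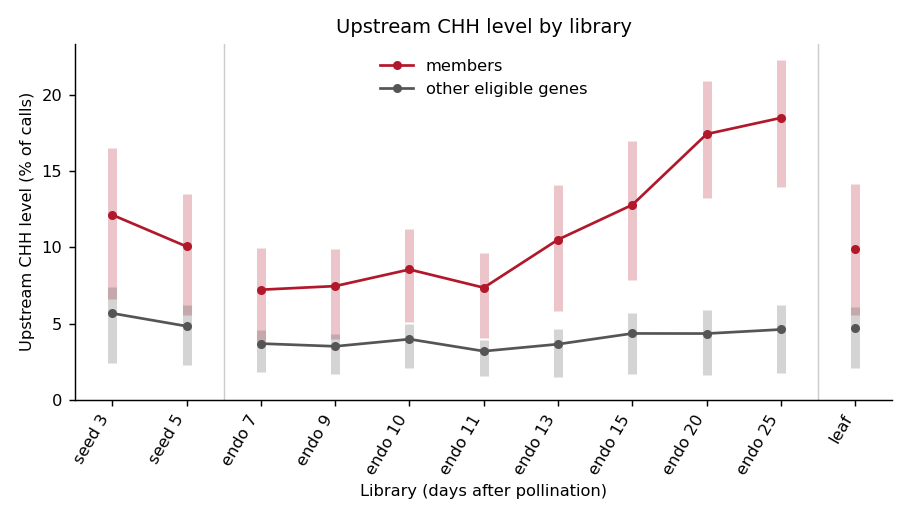
Mean upstream CHH level (percent of calls) in each library, for the 953 members and the 32712 other eligible genes, with pale bars for the quartiles over genes. The member mean goes from 7.22% at day 7 to 18.5% at day 25, while that of the other genes stays between 3.18% and 5.67%.

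Single members differed widely in their gain. The gain ran from 8.002 to 38.62 points, with a median of 9.92 and quartiles of 8.90 and 11.7, so most members lay near the limit. Just inside it were GRMZM2G046846 and GRMZM2G423456 with 8.002 points and GRMZM2G100212 with 8.003 points, and just outside GRMZM2G045706 with 7.997, GRMZM2G181002 with 7.992 and GRMZM2G030598 with 7.99. The counting error of a gain had a median of 1.02 points, and in 441 members (46.3%) the lower end of the gain's 95% counting interval was still at least 8 points. The late rise was often uneven between its 2 libraries, since both were at least 8 points above the early mean in 401 members (42.1%), only day 20 in 230 and only day 25 in 322. Both late libraries were above all 3 early ones in 870 members (91.3%), where 27.1% of all eligible genes met this, a count that the choice of members largely fixes. Without the day 20 library the rule chose 1546 genes, of which 723 were among the 953. A loss of at least 8 points was found in 26 eligible genes, or 0.0772%.

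**Figure D2:**
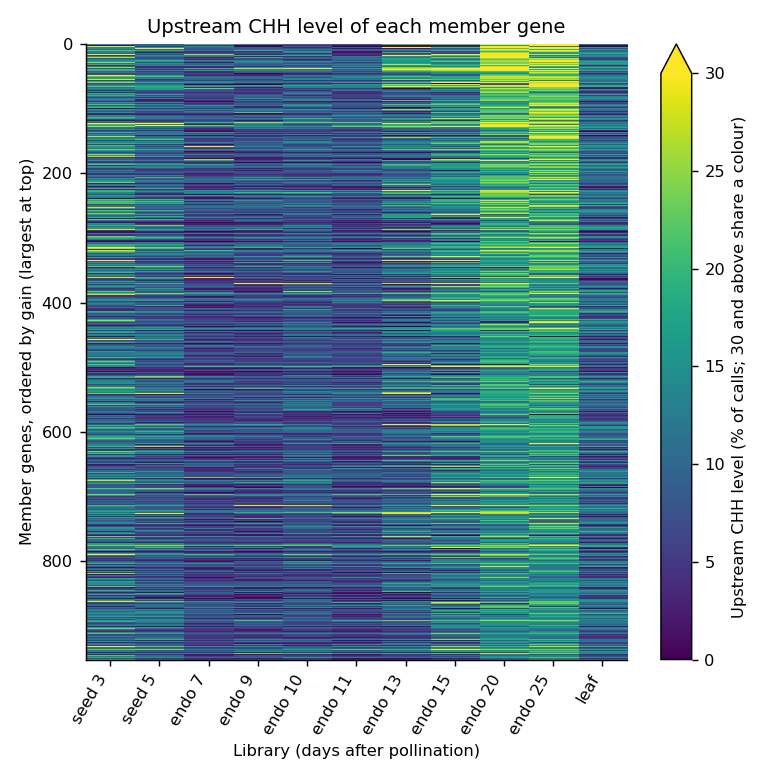
Upstream CHH level (percent, colour) of each of the 953 members (rows, ordered by gain) in the 11 libraries (columns). Days 20 and 25 are the brightest columns, days 7, 9, 10 and 11 the darkest of the endosperm, and single rows differ in whether day 20 or day 25 is higher.

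The endosperm libraries of days 10, 13 and 15 had no part in the gain by which members were chosen. In them too, member levels were mostly higher in the library of the later day. The level at day 15 was above that at day 10 in 763 members (80.1%), against a background of 51.6% of all eligible genes. It was at least 8 points above in 206 members (21.6%), where the background was 2.78%, and at least 8 points below in 17 members (1.78%), where the background was 1.2%. A steady order, day 10 below day 13 below day 15, was found in 367 members (38.5%) against 17.8% of eligible genes. The mean difference between day 15 and day 10 was 4.25 points in the members and 0.376 points in the other eligible genes. Genes with more leaf methylation that were not members also had higher means at day 15. The 716 genes at or above the leaf limit had 12.4% at day 10 and 17.9% at day 15, where members had 8.55% and 12.8%. The 939 other eligible genes with a leaf level of 15% to 20% had 9.01% and 12.3%. A rise between these days is thus not particular to the members. Members that share sequence are not independent, and of the 953 windows 879 overlapped no other member's. All genes were read from the same 1 library per day, so genes are not replicates of the change. A difference between these libraries cannot be told apart from one between days.

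No single gene could be called from these 3 libraries. A straight line in day was fitted with limma to all 37523 genes with enough calls, and after Benjamini-Hochberg adjustment 0 genes (a background of 0%) and 0 of 952 members rose or fell. At an unadjusted p under 0.05, 203 of the 952 members rose, against 3.93% of all genes, and 22 fell, against 2.33%. Rising members at this p numbered 133 on the arcsine scale, against 2.73% of all genes, and 62 with trended and robust moderation, against 1.7%. The median slope was 0.77 points a day in members, 757 of which had a slope above 0, and 0.00947 points a day over all genes, of which 19188 had one above 0.

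As a share of each member's own gain, the level at day 10 had a median of 9.9%, that at day 13 of 24.3% and that at day 15 of 50.6%. At day 15, 482 members had reached at least 50% of their gain, 131 had reached all of it, and 115 were still at or below their early mean. These shares divide single-library levels by the gain that chose the members, so they hold the noise of both.

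The members that carry a gene symbol include 3 alpha-zein genes, which encode the main storage proteins of the maize endosperm. The gene z1A1_2 (GRMZM2G404459, chr4:5516523-5518566, plus strand) had levels of 7.80% and 6.68% in whole seed and 6.20%, 2.54%, 6.92% and 6.70% in endosperm at days 7, 9, 10 and 11. It then had 8.89%, 15.4%, 16.8% and 22.0% at days 13, 15, 20 and 25, and 3.37% in the leaf. Every level from day 13 on was above every earlier one, although the 95% Wilson interval of day 13, 7.07% to 11.1%, held the 7.80% of 3-day seed, and the gain was 14.2 points with a counting error of 1.22.

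The gene z1C2 (GRMZM2G397687, chr4:21312310-21313379, minus strand), listed with the alias floury2, a locus known for an opaque, soft kernel when mutated, moved earlier. Its levels were 2.99% and 4.10% in whole seed, 3.71%, 5.89%, 7.42% and 8.70% in endosperm at days 7, 9, 10 and 11, and 3.39% in the leaf. At days 13, 15, 20 and 25 it had 16.6%, 16.4%, 15.4% and 17.2%, with 95% Wilson intervals of 15.0% to 18.4% at day 13 and 15.8% to 18.8% at day 25. Its level thus went up at each step from day 7 to day 13, most between days 11 and 13, and was 15.4% to 17.2% from then on. In the limma comparison with whole seed described below, z1C2 was 9.93 points (SE 3.21) higher in endosperm of days 10, 13 and 15, with an adjusted p of 0.275, which does not pass.

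The gene z1C1_11 (GRMZM2G088273, chr4:5075029-5076097, plus strand) had 5.02% and 3.14% in whole seed, 1.20%, 1.94%, 5.60% and 3.80% at days 7, 9, 10 and 11, and 2.15% in the leaf. At days 13, 15, 20 and 25 it had 9.60%, 12.7%, 6.68% and 16.3%. The day 20 level was below those of days 13 and 15, outside their Wilson intervals. Alpha-zein genes have near-identical copies, so calls may have been placed on the wrong copy and these 3 profiles are uncertain. Of 26 genes with a zein symbol 23 were eligible and these 3 were members, where 2.83% of all eligible genes were. Among the members were 0 of the beta-, gamma- or delta-zeins. A count this small, in genes that may share calls, does not set the zeins apart. The gamma-zein gz27 had a gain of 9.21 points but a leaf level of 26.2%, above the limit.

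Of the remaining symbols, sm2 (salmon silks2, GRMZM2G180283, chr2:201880538-201882138, a rhamnosyltransferase gene of the maysin pathway in silks) had lower levels in early endosperm than in whole seed, leaf or late endosperm. It had 19.4% and 16.6% in whole seed, 8.14%, 9.96%, 8.72% and 10.2% in endosperm at days 7, 9, 10 and 11, then 14.2%, 16.03%, 18.1% and 17.9%, and 16.1% in the leaf. Both late levels lay within the range of whole seed and leaf, and those of days 7 to 11 lay below it.

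The gene ts1 (tasselseed1, GRMZM2G104843, chr2:45192092-45196460, a lipoxygenase gene of jasmonate synthesis) became a member through day 20. It had 1.84% and 12.1% in whole seed, 8.56%, 4.09%, 5.99%, 4.32%, 8.01% and 12.9% in endosperm from day 7 to day 15, 23.4% at day 20, 4.41% at day 25, and 11.9% in the leaf. Its day 25 level overlapped its early ones.

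The gene listed with the alias nrp1 (GRMZM2G062650, chr3:31804625-31806658), known as a maternally expressed imprinted gene of the endosperm, was low in endosperm until day 13. It had 5.61% and 9.34% in whole seed, 3.15%, 4.04%, 1.63%, 4.41% and 3.07% from day 7 to day 13, then 7.29%, 9.33% and 14.5%, and 6.93% in the leaf. Both late levels were above all its earlier endosperm levels. The other contexts and the number of calls differed in the same libraries. Its upstream CG level was between 37.3% and 64.8% from day 7 to day 15, then 12.2% and 10.2% at days 20 and 25, and its CHG level was between 36.2% and 49.5%, then 13.1% and 11.3%. Its upstream CHH calls numbered 1139 to 2222 from day 7 to day 15, then 525 and 599, and the part of this in the gain was not tested. The gene pco097024a (GRMZM2G036765, chr1:237087363-237092641) had a single low early library, with 1.09% at day 7 and between 8.05% and 17.3% in the other endosperm libraries. Its day 10 level of 17.3% was above both late levels, 14.4% and 15.6%.

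**Figure D3:**
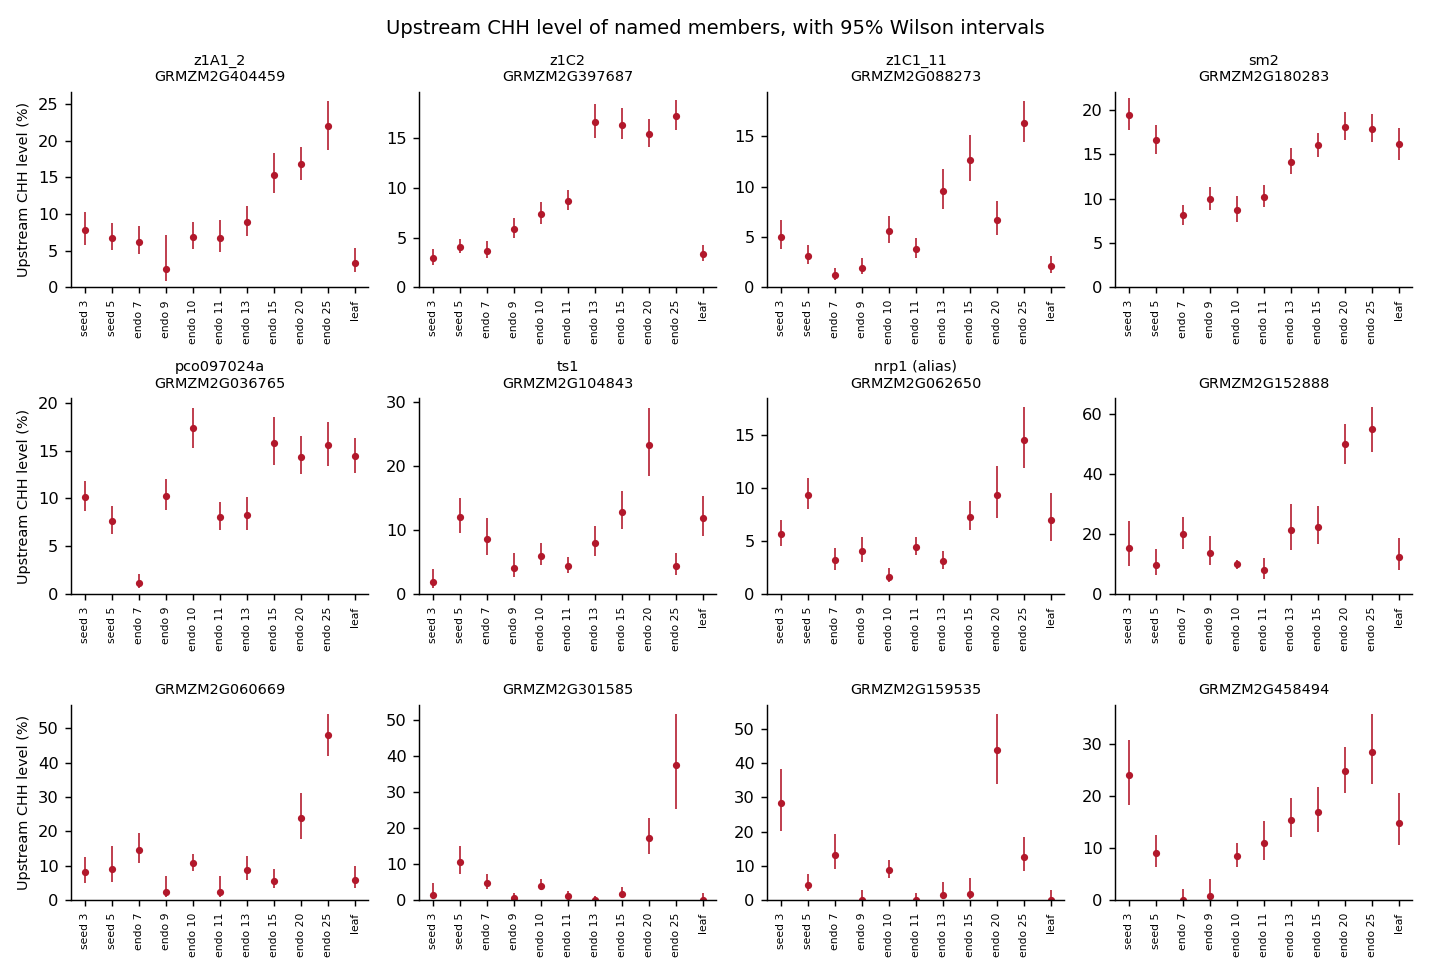
Upstream CHH level (percent of calls, points) with 95% Wilson intervals (bars) in the 11 libraries for 7 members with a symbol or on a list and the 5 members with the largest gain. z1C2 reaches 16.6% at day 13, z1A1_2 climbs to 22.0% at day 25, and ts1 is high at day 20 only among the late libraries.

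The 5 largest gains were in genes without a symbol, and each of these had a library with at most 132 upstream CHH calls. GRMZM2G152888 (chr2:222467202-222471222) had 15.4% and 9.71% in whole seed, 19.9%, 13.7%, 9.81%, 7.85%, 21.3% and 22.3% in endosperm from day 7 to day 15, 50% and 54.9% at days 20 and 25, and 12.4% in the leaf. It had 91 to 242 upstream CHH calls in all libraries but that of day 10, which had 1458. Its late levels stood far above all others, with 95% Wilson intervals that overlapped none of theirs, and its gain was 38.6 points.

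GRMZM2G060669 (chr4:238316846-238320934) had 23.9% at day 20 and 48.1% at day 25, against 2.48% to 14.6% in the other 9 libraries. GRMZM2G301585 (chr4:155527981-155531061) had 17.2% and then 37.5%, the latter from 48 calls, against 0% (0 of about 338 calls at day 13, which allows up to 0.888%) to 10.5% in the other 9. At day 25 its upstream CHG and CG levels were also far above those of its other libraries, at 100% and 90%. GRMZM2G159535 (chr5:208379364-208382052) had 43.8% at day 20, from 89 calls, but 12.6% at day 25, below its 28.3% in 3-day seed. These 3 profiles were thus high in 1 late library above all.

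GRMZM2G458494 (chr7:13615789-13617804) had 0%, 0.76%, 8.46%, 11.0%, 15.5%, 17.01%, 24.8% and 28.6% from day 7 to day 25, rising at every step. It had 24.0% and 9.07% in whole seed and 15.0% in the leaf, so day 7 was the low point of the series. There 0 of about 170 calls (a total estimated from the other contexts) were methylated, which allows a level of up to 1.76%.

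Starch genes, which give the study its title, were not among the members. Of 21 eligible starch synthesis genes 0 were members. Their median gain was 1.63 points and the largest 7.28, beside a median of 0.57 over all eligible genes. A gain above 0 was found in 18 of the 21, a larger share than the 65.9% of all eligible genes. A further starch list gene, GRMZM2G318780 (alias sus2, a sucrose synthase), had a gain of 9.15 points but as few as 4 upstream CG calls in a library, too few for the rule. Of 18 eligible storage protein genes and their regulators 2 were members (z1A1_2 and z1C2), of 5 Polycomb and imprinted genes 1 was (the nrp1 gene), and 0 were among 18 genes of the transfer layer and aleurone, 14 of the DNA methylation machinery, 8 of photosynthesis and 14 housekeeping genes. In the storage list, GRMZM2G067919 (alias glb1, a globulin of the embryo) and GRMZM2G159369 (alias pdi7) gained 11.5 and 12.4 points but had leaf levels above the limit, 20.5% and 29.4%. With a background of 2.83%, lists of this size hold few members or none, so these counts set no list apart.

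Members were more frequent among genes that already carried upstream CHH methylation in the leaf. They were 0.732% of the eligible genes with a leaf level under 2%, 1.01% of those from 2% to 5%, 3.75% from 5% to 10%, 9.74% from 10% to 15% and 17.1% from 15% to 20%. Among the 716 genes above the leaf limit 238 (33.2%) had a gain of at least 8 points, so the limit leaves out genes with as large a gain. The leaf is used in the rule as a limit, so these shares are descriptions.

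Members of all 5 classes were highest late, and those with the least leaf methylation were late in reaching it. The 194 members with a leaf level of 15% to 20% had means of 10.1% at day 7, 16.1% at day 15 and 21.3% at day 25. The 56 members with a leaf level under 2% had 4.38%, 7.77% and 14.4% at those days and 15.8% at day 20, their highest library. In this class the leaf mean was 1.20%, and the whole-seed means were 7.32% and 5.87%. Of all 953 members, 734 (77.0%) had a late mean above the leaf and both whole-seed libraries, and 6220 (19.0%) of the other eligible genes did. The rule used the late libraries and the leaf. The choice of members thus largely fixes this contrast and the late high point of all 5 classes.

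**Figure D4:**
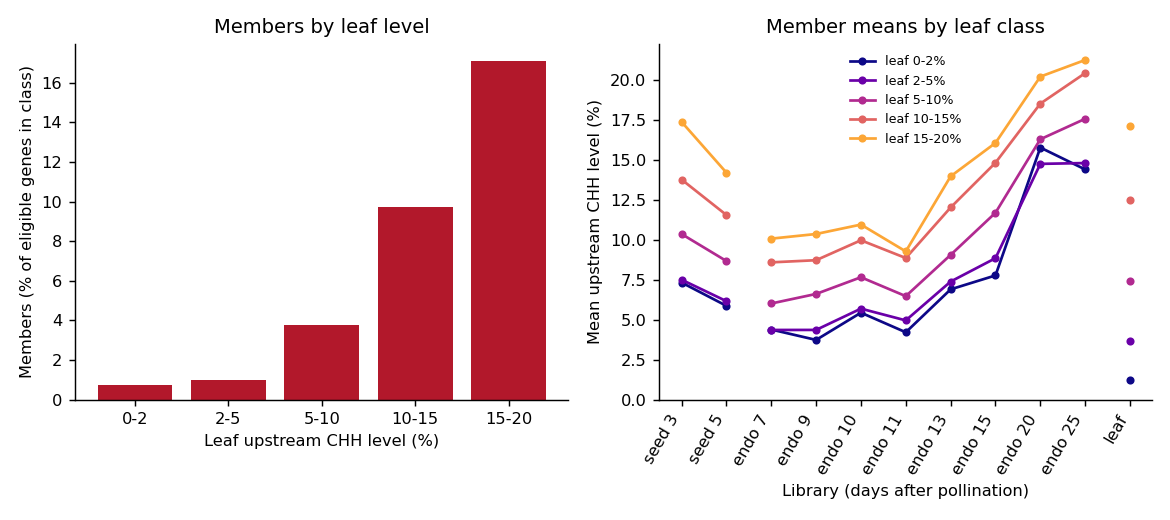
Left, members as a percentage of the eligible genes in 5 classes of leaf upstream CHH level (percent). Right, mean upstream CHH level (percent) of the members of each class by library. The share of members goes from 0.732% to 17.1%, and all 5 classes are highest at day 20 or 25.

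The other contexts upstream moved little or differently. The upstream CHG mean of the members was 56.4% ± 1.17 (SD, n = 2) in whole seed, 48.0% ± 4.42 (SD, n = 3) in early and 49.1% ± 0.23 (SD, n = 2) in late endosperm. In the other eligible genes it was 47.6% ± 4.46 (SD, n = 3) early and 44.4% ± 0.24 (SD, n = 2) late. The mean change per gene was 1.07 points in members, 540 (56.7%) of which were above 0, and -3.17 points in the other genes, 10163 (31.1%) of which were above 0. The direction in members rests on the day 11 library, where their mean was 43.0%: without it the change was -1.44 points in members, 401 (42.1%) of which were above 0, and -5.66 points in the others. Upstream CG had a mean change of 3.19 points in members and 2.11 points in the others, and of 2.2 and 1.004 points without day 11.

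The gene bodies of the members did not take part to a like extent. The gene body CHH level had a mean late-minus-early change of 0.12 points in members and 0.068 points in the other genes, and the median was -0.10 and -0.11 points. Gene body CHG changed by a mean of -0.95 points in members and -1.56 in the others. Without day 11 the mean changes were 0.047 and 0.011 points for body CHH and -1.71 and -2.63 points for body CHG.

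**Figure D5:**
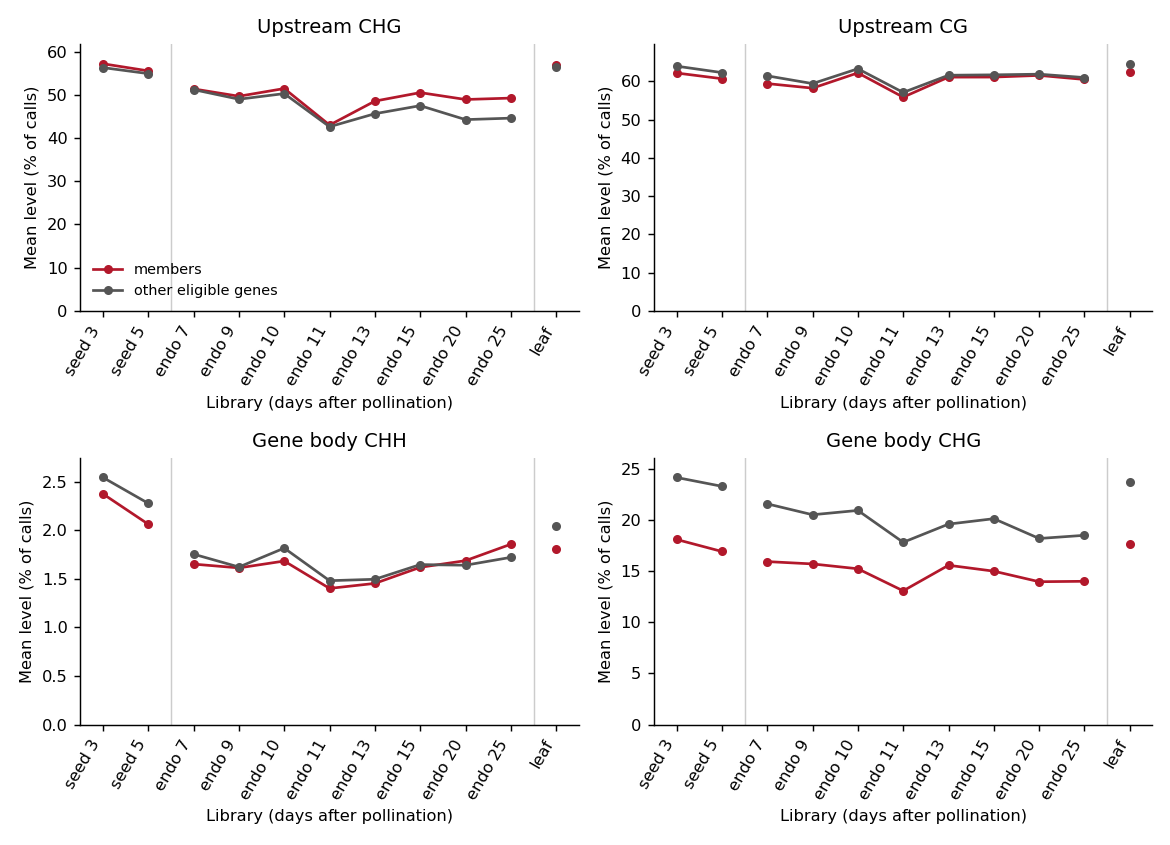
Mean levels (percent of calls) of upstream CHG, upstream CG, gene body CHH and gene body CHG in each library, for members and other eligible genes. Upstream CHG of the members is above that of the other genes in the late libraries (49.1% against 44.4%), and the day 11 library is low in both.

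Whole seed was compared with endosperm of days 10, 13 and 15 by limma, since these 5 libraries did not enter the gain. The p-values measure the spread between libraries of different days. For upstream CHH, 0 of 952 members passed, against 1 of 37523 genes (0.00267%, higher in endosperm). At an unadjusted p under 0.05, 63 members were higher in endosperm, against a background of 1.18%, and 100 were lower, against 13.8%. The median difference was -0.33 points in members and -0.76 points over all genes.

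For upstream CHG, 0 of 937 members and 0 of 36075 genes passed (0%), and at an unadjusted p under 0.05, 10 members were higher in endosperm, against a background of 0.638%, and 192 were lower, against 29.4%. The median difference was -6.15 points in members and -7.82 points over all genes. For upstream CG, 0 of 952 members and 0 of 36097 genes passed (0%), with 34 members higher at an unadjusted p under 0.05, against 2.77%, and 36 lower, against 5.71%. In gene body CHH, 3 of 851 members were lower in endosperm, where 125 of 32519 genes were (0.384%). The share of members was thus close to that of all genes. Higher in endosperm were 0 members, where 1 gene was (0.00308%).

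The 3 members had more gene body CHH methylation in whole seed than in any endosperm library of days 7 to 15. GRMZM2G172386 was lower in endosperm (difference -10.2 points, SE 0.663, limma adjusted p = 0.0209), with 14.4% and 14.8% in whole seed, 4.36%, 5.38% and 3.44% at days 10, 13 and 15, and 13.5% in the leaf. Its body level was 22.6% at day 20 and 10.7% at day 25, so here the late body levels were also above the early ones. AC204359.3_FG004 had a difference of -10.18 points (SE 0.979, limma adjusted p = 0.0472), with 15.1% and 15.7% in whole seed, 6.06%, 3.42% and 6.16% at days 10, 13 and 15, and 14.5% in the leaf. GRMZM2G158197 had one of -6.23 points (SE 0.577, limma adjusted p = 0.0437). In GRMZM2G158197 the body level stayed at 0.77% and 1.60% at days 20 and 25 while the upstream level gained 10.7 points. With the library of day 3, 10, 13 or 15 left out, 0 members passed, and without the 5-day seed library 21 did.

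Members were found on all 10 chromosomes, from 2% of the eligible genes on chromosome 10 to 3.36% on chromosome 5. They were 3.61% of the eligible genes within 10 Mb of the end of a chromosome's gene models, and the share fell with distance to 2.15% beyond 80 Mb. Their median gene length was 3163 bp against 2524 bp in the other eligible genes, and 25 against 22 gene models lay within 500 kb to either side. The median of leaf gene body CHG, a mark of genes that are methylated like transposons, was 3.35% in members and 3.7% in the others. Its upper quartile was 21.4% in members and 44.4% in the others.

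Upstream windows of neighbouring genes can be the same bases. In 14 head-to-head gene pairs the upstream CG counts were the same in all 11 libraries, at a median distance of 5020 bp between the genes, so the window was taken here as 5000 bp. Where a member's head-to-head partner was 4 to 6 kb away and eligible, the partner was a member too in 20 of 28 cases (71.4%), in 14 of 23 (60.9%) at 2 to 4 kb and in 10 of 28 (35.7%) at 6 to 10 kb. At 10 to 20 kb, where windows do not overlap, it was 2 of 47 (4.26%), beside 3.69% for partners of the other eligible genes. For these other genes the shares were 1.56%, 0.954% and 2.71% at 4 to 6, 2 to 4 and 6 to 10 kb. Pairs under 2 kb apart, whose windows taken as 5000 bp reach into the partner's body, shared membership in 2 of 28 cases (7.14%), beside 1.47% for the other eligible genes.

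The number of calls also differed between early and late libraries. The median number of upstream CHH calls in members was 0.837 to 0.849 times that of the other eligible genes at days 7, 9 and 11. It was 0.91 times at day 10, 0.865 times at day 13 and 0.953 times at day 15. At days 20 and 25 it was 0.962 and 0.981 times. The CHH share of all upstream calls went up by a median of 1.56 points in members and 0.468 points in the others. Members were 4.07% of the eligible genes whose CHH share went up by at least 1 point, 2.01% of those where it changed by less and 1.93% of those where it went down by at least 1 point. They were 5.58% of the genes whose number of CHH calls, late over early and relative to the median eligible gene, was above the inverse of 0.8, 2.43% of those between 0.8 and its inverse and 2.21% of those under 0.8. In libraries that the rule did not use, the median difference between day 15 and day 10 was 4.74, 4.04 and 1.26 points in the members of these 3 classes, and 0.15, 0.1 and -0.14 points in all eligible genes of the same classes. The part of these shifts in the gain was not tested. Organelle DNA is taken to be unmethylated and so shows conversion failure. Its CHH levels were 0.775% to 0.877% at days 7, 9 and 11 and 0.657% to 0.735% at days 20 and 25, lower in the late libraries. At day 10 they were 0.977% and 1.01%, and at days 13 and 15 they were 0.65% to 0.746%. The libraries held from 143230165 (leaf) to 223198933 (day 11) calls.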

How the data were processed

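Genomic DNA of 11 Mo17 samples was bisulfite sequenced. The submitters' processing notes name cutadapt, Bismark and Bowtie2. Not given in the sources used here were tool versions, the genome build and the upstream width. Per the file headers, the deposited tables hold the count of methylated calls and the percent methylated, computed by the authors, for each gene, region and context. Total calls were recovered as count over level: of 8289 upstream CHH values whose rounding spans under 0.1 call, 100.0% held a whole number. For counts of 0, totals were taken from the gene's other contexts in that library. The 57 chloroplast and 124 mitochondrial models were left out, except as a conversion check.

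Tests used limma 3.58.1 (R 4.3.3) over all nuclear genes with at least 10 calls in all 11 libraries (for CG and CHG also a mean level of at least 1%), at a Benjamini-Hochberg adjusted p of 0.05. Fits were tested on simulated data. The limma differences are endosperm minus whole seed, and the late-minus-early contrast has no test. Other tables used Python 3.11.15, numpy 2.4.6, pandas 2.3.3, scipy 1.17.1 and matplotlib 3.10.9. Wilson intervals, counting errors and the limits given for a count of 0 (3 counts of the total) cover counting error alone, as PCR copies cannot be recognised without molecular identifiers. Symbols are from NCBI RefSeq (assembly Zm-B73-NAM-5.0), which matched 18775 nuclear models; coordinates are those of the deposited files. Members and gene lists were chosen with earlier results of these data known. Named genes are members with a symbol or on a list, the 5 largest gains, the 3 to either side of the limit, and, added after their values were seen, the 3 members past the threshold in gene body CHH and the list genes that gained as much but were not eligible. Alternatives changed the minimum calls, gain and leaf limit, the scale, the moderation, the libraries and the test.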

Additional observations from a re-analysis of the deposited data

Results flagged for a closer look

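In 5 of 18 profiles over the 8 endosperm libraries, 1 library stood apart from the rest by more than Dixon's 95% critical value (0.526 for 8 libraries); chance flags about 1 in 20 groups. The upstream CHG mean of the members was low at day 11, at 43.0%. The upstream CHH level of ts1 (GRMZM2G104843) was high at day 20, at 23.4%, that of GRMZM2G159535 at day 20, at 43.8%, that of GRMZM2G060669 at day 25, at 48.1%, and that of GRMZM2G301585 at day 25, at 37.5%. The members were chosen for a high mean of days 20 and 25, and that choice favours genes with 1 high late library. The number of upstream CHH flags can therefore not be set against the rate of 1 in 20.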

How the results depend on the processing

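With a minimum gain of 6 or 10 points there were 2074 or 458 members. Leaving out 1 library at a time gave 991 to 1546. Alternatives chosen after seeing the data left 401 members (both late libraries past the limit) and 229 (CHH share of calls nearly constant).

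Whole seed against endosperm depended on the fit. For upstream CHH, a quasi-binomial model on calls called 12 members and 760 genes, all 8 endosperm libraries 2824 genes, and the arcsine scale, trended moderation and each left-out library (0 to 0) called 0 genes. For upstream CHG, all 8 libraries called 82 members and 5291 genes, and the quasi-binomial model 84 and 6027. For upstream CG, all 8 libraries called 2 members and 187 genes, and the quasi-binomial model 1 gene. For gene body CHH, members called were 5 with at least 20 calls, 0 on the arcsine scale or with trended moderation, 50 with all 8 libraries, 29 by the quasi-binomial model and 0 to 21 with 1 library left out. The genes called were 4 on the arcsine scale, 0 with trended moderation, 1763 with all 8 libraries, 713 by the quasi-binomial model and 2 to 648 with 1 library left out. The trend in day over all 8 endosperm libraries, which reuses the rule's libraries, called 248 members and 693 genes. Without the day 11 library, an alternative chosen after seeing the data, the mean late-minus-early change of upstream CHG in members turned from 1.07 to -1.44 points. The cause of these differences was not tested.

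No paired analysis was possible because each stage is 1 library and the labels give no replicate number shared between groups. Levels from few calls, as in the 5 largest gains, have wide intervals, and differences between days cannot be told apart from differences between libraries.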
